A study of Mus musculus with 12 samples.

Results

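Cytochrome P450 enzymes were followed in the renal cortex of mice with and without acute kidney injury (AKI) and with and without the glucocorticoid receptor (GR) in the tubular epithelium. The family was taken as every gene whose symbol begins with Cyp and a digit and that has a probe set carrying that symbol alone. By this rule 87 of the 19938 genes on the array were members, in 15 families and 37 subfamilies, each read by 1 probe set, and 2 of them are pseudogenes. The members were grouped by the reactions their subfamilies are known for. There were 34 drug and xenobiotic enzymes, 19 members of the Cyp2c and Cyp2j subfamilies, here called epoxygenases, and 16 fatty acid hydroxylases of family 4. The epoxygenase group was set by subfamily alone, so it may hold enzymes with other reactions. The xenobiotic group took all members of families 1 to 3 not placed elsewhere, so it also holds Cyp2u1, a fatty acid hydroxylase. The others were 7 sterol and bile acid enzymes, 5 steroid hormone enzymes, 3 retinoic acid hydroxylases, 2 vitamin D enzymes and Cyp20a1, which has no assigned reaction. Cyp24a1 and Cyp19a1 were not analysed here.

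Total RNA of 12 renal cortices was amplified and hybridised to 12 arrays, in 4 groups of 3. Control mice carried nr3c1 flox/flox, that is, the GR gene Nr3c1 flanked by loxP sites and intact, without Cre. GR-deficient mice carried Pax8-Cre;nr3c1 flox/flox, in which Cre recombinase under Pax8 control deletes the gene in renal tubular epithelium. Myoglobinuric AKI was induced by an intramuscular glycerol injection, and cortex was taken 24 hours later. The healthy mice formed a second cohort that received no injection, so AKI, injection and cohort cannot be told apart. Controls without Cre leave any effect of Cre itself inside the genotype comparisons, and GR stays present in cortical cells outside the tubule. The labels do not say that the replicates of a group came from separate animals, so p-values reflect sample-to-sample spread, which may be technical.

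P450 enzymes are heme proteins of the endoplasmic reticulum or the mitochondrion that use molecular oxygen to oxidise lipids, steroids, vitamins and drugs, and they draw electrons from partner proteins such as P450 oxidoreductase. In the kidney the proximal tubule is the main site of the family. There, Cyp2c and Cyp2j epoxygenases turn arachidonic acid into epoxyeicosatrienoic acids, which widen vessels and promote sodium excretion, and Cyp4a hydroxylases turn it into 20-HETE, which constricts vessels. The proximal tubule also holds Cyp27b1, which makes the active form of vitamin D.

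Values below are log2 expression values, and a difference of 1 log2 unit is a 2-fold change. Each probe set has its own response, so values of different probe sets were set against each other only to split the members at the median gene's level. A change was called where limma's test gave an adjusted p under 0.05 over all 19938 genes, and each difference is given with its standard error.

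Nr3c1, the targeted gene, read 9.65, 9.48 and 9.52 in healthy control cortex and 8.18, 8.13 and 8.21 in healthy GR-deficient cortex. After AKI it read 8.82, 8.89 and 8.86 in controls and 8.10, 7.96 and 7.87 in GR-deficient mice, so the genotypes did not overlap in either state. The standard deviation of an array's values ran from 1.88 to 2.06. One control AKI array (replicate 1) lay apart on the second principal component, at 33.8 against -21.6 to 11.6 elsewhere, and 1 healthy GR-deficient array (replicate 1) on the third, at 34.8 against -14.5 to 5.83. Proximal tubule markers were strongly expressed, with a mean level over 16 measured markers of 12.40 to 12.47 in healthy controls. That mean was 10.42 to 10.85 in control AKI, 11.88 to 12.34 in healthy GR-deficient and 11.85 to 12.07 in GR-deficient AKI cortex. In control mice all 16 of these markers fell after AKI, and 15 of 16 differed between the genotypes in their response to AKI. Their part in the P450 results was not tested. In whole cortex, fewer cells of a type and less RNA per cell cannot be told apart.

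In control mice AKI lowered P450 genes far more often than it raised them. Of the 87 members, 23 (26.4%) fell and 8 (9.20%) rose, 31 in all (35.6%). Over all genes tested 15.1% fell and 13.6% rose, 28.7% in all. The largest falls were in Cyp2d12, Cyp2j13, Cyp2d26, Cyp51, Cyp2j11 and Cyp2c23, each by more than 1.5 log2 units, and the largest rise was in Cyp4a14. Differences past 1 log2 unit were called for 13 members that fell and 1 that rose, against 787 and 519 of all 19938 genes. The median difference was -0.11 over the 87 members and 0.0013 over all genes.

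The falls lay among the members with higher array values. Of the 28 members whose mean over the 12 arrays was above the median gene's mean of 7.06, 21 fell and 3 rose, with a median difference of -0.93. All 9969 genes above that level included 2527 that fell and 2206 that rose, with a median of -0.01. Among the other 59 members 2 fell and 5 rose, with a median of -0.02. A low array value can be the signal of a probe set with little target, so most of these 59 members carry little information about change.

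**Figure D1:**
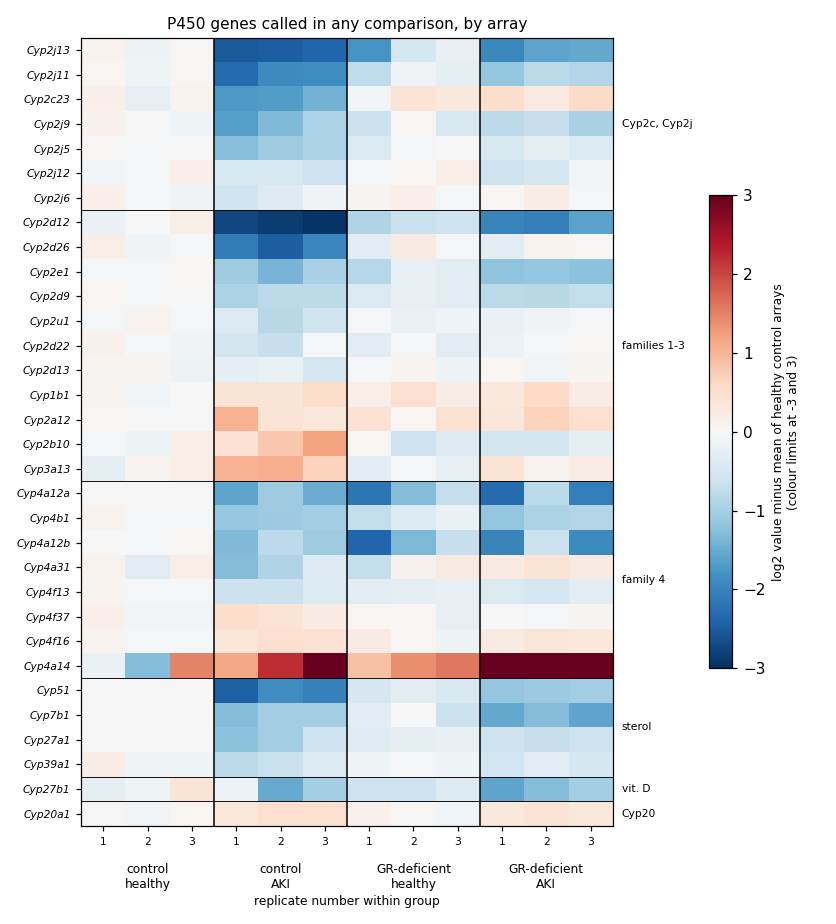
Heat map of the 32 P450 genes called in any comparison (rows) on the 12 arrays (columns, by group), coloured by the log2 value minus the mean of the healthy control arrays. Rows were picked by their calls, 31 of them in control AKI (23 lower, 8 higher), so changes in the 3 control AKI arrays are partly built in. Between the genotypes in AKI 11 rows were called higher and 3 lower in GR-deficient cortex, and the others were not called.

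In GR-deficient mice AKI changed 7 members, with 6 lower (6.90%), 1 higher (1.15%) and 8.05% in all, against 1.35%, 3.29% and 4.64% of all genes. Cyp2d12, Cyp7b1, Cyp2e1, Cyp51, Cyp4b1 and Cyp2d9 fell, and Cyp4a14 rose. Every one of these 7 was called in the same direction in control mice. The count of 7 depended on single arrays, with 2 members called without GR-deficient AKI replicate 1 and 3 without healthy GR-deficient replicate 2. Cyp2d12 and Cyp7b1 were called in each fit that left out 1 array, and the other 5 calls were lost without GR-deficient AKI replicate 1.

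The AKI responses of the genotypes, which share no sample, correlated across the 87 members with Pearson's r = 0.68, against 0.55 over all 19938 genes. Genes are not independent replicates, and these values describe the arrays. Of the 23 members that fell in controls, 22 had a smaller difference in GR-deficient mice and 18 had the same sign. These members were picked by their fall in controls, so a smaller value elsewhere is partly built in. Their median difference was -1.09 in controls and -0.37 in GR-deficient mice. Between genotypes (GR-deficient minus control) their median difference was -0.32 in healthy and 0.36 in AKI cortex. The smaller response thus held lower healthy values as well as higher AKI values in GR-deficient mice.

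**Figure D2:**
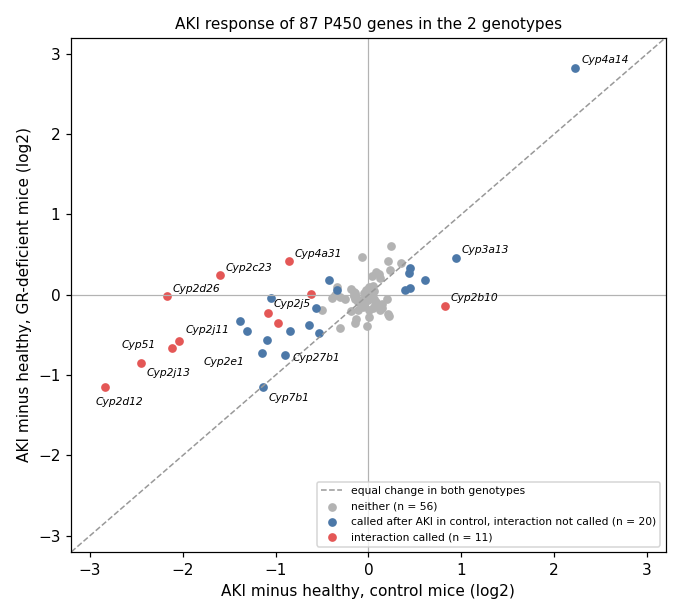
AKI minus healthy difference (log2) of each of the 87 P450 genes in control mice (x axis) and in GR-deficient mice (y axis), with the line of equal change dashed. The 11 genes with a called interaction of genotype and AKI are red, and all but Cyp2b10 lie to the left of 0 and above the line.

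Healthy GR-deficient cortex had no member called by limma against healthy control cortex, with 0 higher and 0 lower, where 0.0351% and 0.110% of all genes were (0.145% in all). At an unadjusted p under 0.05 there were 17 of 87 members, against 2124 of all 19938 genes. Of these 17 members 14 were among the 28 above the median gene's level, where 1622 of all 9969 genes had such a p. Of those 28 members 22 had a negative difference, with a median of -0.28. Of the 9969 genes 5839 did, with a median of -0.04. Cyp2d12 came nearest, with a difference of -0.73 ± 0.14 in GR-deficient mice (adjusted p = 0.0503). Without healthy GR-deficient replicate 3, Cyp2d12 and Cyp4a12b were called.

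In AKI the genotypes differed in 14 members (16.1%), 11 higher (12.6%) and 3 lower (3.45%) in GR-deficient than in control cortex. Over all genes 17.4% differed, with 10% higher and 7.34% lower, so the share in the family was near that of the array. The interaction, which tests whether the AKI response itself differed between genotypes, was called for 11 members (12.6%) against 11.5% of all genes. Of these, 10 were positive (11.5%) and 1 negative (1.15%), where all genes had 7.39% and 4.06%. All 10 positive members were above the median gene's level, as were 1351 of the 1473 genes with a positive interaction on the whole array. The 10 had also fallen in control mice. That fall is subtracted within the interaction, so its link with a positive interaction is partly built in.

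Among the 19 Cyp2c and Cyp2j genes 6 (31.6%) fell in control AKI and none rose, against 15.1% and 13.6% of all genes. Cyp2c23, the main arachidonic acid epoxygenase of the rodent kidney, was the Cyp2c gene that changed. It read 9.95, 9.55 and 9.89 in healthy controls and 8.07, 8.12 and 8.38 in control AKI, without overlap. In GR-deficient mice it read 9.70, 10.21 and 10.11 when healthy and 10.31, 10.07 and 10.37 in AKI, where the groups overlapped. The control difference was -1.60 ± 0.15 (3.03-fold lower, adjusted p = 1.82e-06), and the difference between genotypes in AKI was 2.06 ± 0.15 (4.16-fold higher in GR-deficient mice, adjusted p = 1.18e-06). The interaction was 1.84 ± 0.22 (95% interval 1.38 to 2.31, adjusted p = 0.000153). The other 12 Cyp2c genes were called in no comparison of the reported fit, and their mean values of 2.96 to 5.55 lay under that of the median gene. With array quality weights Cyp2c54 was called 0.26 higher in GR-deficient than in control AKI (adjusted p = 0.0144).

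Most of the Cyp2j subfamily fell, with 5 of 6 genes (83.3%) called lower in control AKI and a median difference of -1.19. Over all genes 15.1% were called lower. Cyp2j5, the abundant renal epoxygenase of this subfamily, went from 13.14, 13.03 and 13.12 to 11.83, 12.04 and 12.17 in controls. GR-deficient cortex had 12.67, 13.03 and 13.09 when healthy and 12.62, 12.80 and 12.69 in AKI, so those groups overlapped. Its control difference was -1.09 ± 0.13 (adjusted p = 1.1e-05) and its interaction 0.86 ± 0.18 (adjusted p = 0.00594). Cyp2j11 went from 11.69, 11.50 and 11.67 to 9.30, 9.70 and 9.75 in controls, and from 10.85, 11.52 and 11.32 to 10.45, 10.81 and 10.73 in GR-deficient mice. All control AKI arrays were under every GR-deficient array. The control difference was -2.04 ± 0.17 (adjusted p = 4.8e-07), against -0.57 ± 0.17 in GR-deficient mice (adjusted p = 0.072), with an interaction of 1.47 ± 0.24 (adjusted p = 0.00123). The GR-deficient difference was called with quantile or cyclic loess normalization (adjusted p = 0.0261 and 0.0158), among genes above the median level (adjusted p = 0.0375) and, at -0.76, without healthy GR-deficient replicate 1 (adjusted p = 0.0198).

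Cyp2j13 read 12.03, 11.76 and 11.96 in healthy controls and 9.41, 9.44 and 9.55 in control AKI, and 10.16, 11.39 and 11.69 and then 9.98, 10.34 and 10.39 in GR-deficient mice. Its healthy GR-deficient replicate 1, the array that lay apart, was low and overlapped the AKI arrays of that genotype. The GR-deficient AKI difference was -0.84 and not called (adjusted p = 0.102), and without that array it was -1.30 and called (adjusted p = 0.000674). The control difference was -2.45 ± 0.27 (adjusted p = 8.03e-06) and the interaction 1.61 ± 0.39 (adjusted p = 0.0143), while the genotypes in AKI differed by 0.77 (adjusted p = 0.0711), which did not pass. Cyp2j9 fell by 1.30 ± 0.19 in controls (adjusted p = 7.76e-05), with an interaction of 0.85 ± 0.26 that missed the threshold (adjusted p = 0.0528). It was called among genes above the median level (adjusted p = 0.0291) and with cyclic loess normalization (adjusted p = 0.0373). Cyp2j6 did not pass in control AKI, at -0.36, and was 0.44 ± 0.13 higher in GR-deficient than in control AKI cortex (adjusted p = 0.0341), a call that was kept in 2 of the 6 fits leaving out 1 array. The Cyp2j genes are close relatives, and RNA of one could hybridise to the probes of another.

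The starts of 3 Cyp2j genes with a called interaction, and of Cyp2d26, which had the largest interaction, are shown so that the upstream sequence of members that moved together can be set side by side. Each is the 300 bases from 250 before to 50 after the start of transcription in the RefSeq annotation of GRCm38.p6, written 5′ to 3′ along the gene, and all 4 genes lie on the minus strand. Cyp2j5 is at chr4:96664070-96664369, Cyp2j11 at chr4:96348631-96348930, Cyp2j13 at chr4:96077491-96077790 and Cyp2d26 at chr15:82794196-82794495. Capitals mark any match, on either strand, to AGAACA (core of the GR element), AGGTCA (nuclear receptor core), CAAAGTCC (HNF4 core) or TATAAA (letters of the TATA box). None of these motifs contains another.
Cyp2j5: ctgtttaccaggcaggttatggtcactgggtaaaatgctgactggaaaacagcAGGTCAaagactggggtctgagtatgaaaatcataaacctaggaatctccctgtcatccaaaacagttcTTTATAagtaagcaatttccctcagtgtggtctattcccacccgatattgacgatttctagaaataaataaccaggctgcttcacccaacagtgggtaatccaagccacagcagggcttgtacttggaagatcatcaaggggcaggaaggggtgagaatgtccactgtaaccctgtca
Cyp2j11: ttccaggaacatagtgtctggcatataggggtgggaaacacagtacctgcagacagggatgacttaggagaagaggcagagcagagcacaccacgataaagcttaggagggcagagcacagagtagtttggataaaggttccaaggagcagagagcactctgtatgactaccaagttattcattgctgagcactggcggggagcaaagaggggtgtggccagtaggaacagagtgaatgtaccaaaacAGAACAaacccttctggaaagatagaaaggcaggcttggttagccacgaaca
Cyp2j13: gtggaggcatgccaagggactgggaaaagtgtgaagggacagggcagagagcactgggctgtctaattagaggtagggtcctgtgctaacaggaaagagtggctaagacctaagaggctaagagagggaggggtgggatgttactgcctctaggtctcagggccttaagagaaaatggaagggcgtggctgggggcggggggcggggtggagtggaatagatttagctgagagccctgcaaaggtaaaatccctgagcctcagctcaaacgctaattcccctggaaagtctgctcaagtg
Cyp2d26: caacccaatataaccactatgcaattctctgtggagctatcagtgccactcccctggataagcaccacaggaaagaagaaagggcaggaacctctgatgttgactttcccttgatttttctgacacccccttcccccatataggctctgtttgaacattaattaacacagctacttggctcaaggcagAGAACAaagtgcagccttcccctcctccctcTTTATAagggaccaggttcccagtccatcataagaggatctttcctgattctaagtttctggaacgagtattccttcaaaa

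Cyp2j11 and Cyp2d26 each held 1 AGAACA, Cyp2j5 held 1 AGGTCA and 1 TATAAA, Cyp2d26 also held 1 TATAAA, and Cyp2j13 held no match in this window. Aligned end to end, the Cyp2j promoters were identical at 48.3% to 49.5% of alignment columns. A promoter of this length was found for 64 of the 87 members, among them 13 of the 23 that fell in control AKI. None was found for Cyp2c23, Cyp2d12 or Cyp4a31, which had called interactions. Those of Cyp51 and Cyp2b10, also with called interactions, held no match and are not printed. AGAACA was in 23.4% of these 64 promoters and in 19% of all 27025 promoters, AGGTCA in 23.4% and 16%, and TATAAA in 37.5% and 14.2%. CAAAGTCC was in 14.1% of the member promoters and in 1.44% of all. The 9 members that held it were 5 Cyp2c genes, Cyp3a11, Cyp3a16, Cyp4f18 and Cyp8b1. All 9 had mean values under the median gene's, a range in which 2 of 59 members fell in control AKI, and none of the 9 was among those that fell. Members that fell without a promoter entry could not be searched. A match, counted on either strand and anywhere in the window, is a description of letters. It is not a bound site, nor a TATA box by position.

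Among the drug and xenobiotic enzymes 7 of 34 (20.6%) fell and 4 (11.8%) rose in control AKI, 32.4% in all. Over all genes 15.1% fell and 13.6% rose, 28.7% in all, so the group's total was near that of the array. The Cyp2d subfamily, kin of the human debrisoquine hydroxylase, had 5 of its 10 genes (50%) lower and none higher. Of these calls, Cyp2d22 (-0.42, adjusted p = 0.0483) was kept in 1 of the 6 fits leaving out 1 array and Cyp2d13 (-0.34, adjusted p = 0.038) in 3, and without control AKI replicate 1 a further 3 Cyp2d members, Cyp2d10 and Cyp2d11 among them, were called lower. These genes are named after their values were seen. Cyp2d26 read 11.74, 11.46 and 11.49 in healthy controls, 9.46, 9.09 and 9.61 in control AKI, 11.25, 11.83 and 11.51 in healthy GR-deficient and 11.24, 11.66 and 11.63 in GR-deficient AKI cortex. The control AKI arrays stood alone, and the other 9 arrays overlapped across groups. The AKI difference was -2.17 ± 0.17 in controls (4.51-fold lower, adjusted p = 3.2e-07) against -0.02 in GR-deficient mice, and the interaction was 2.15 ± 0.24 (95% interval 1.63 to 2.67, adjusted p = 0.000116).

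Cyp2d12 had the largest fall of the family and fell in both genotypes. It read 9.29, 9.48 and 9.66 and then 6.75, 6.64 and 6.54 in controls, and 8.57, 8.82 and 8.85 and then 7.50, 7.43 and 7.87 in GR-deficient mice. The 4 groups did not overlap. The differences were -2.84 ± 0.14 in controls (7.14-fold lower, adjusted p = 1.15e-08) and -1.14 ± 0.14 in GR-deficient mice (2.21-fold lower, adjusted p = 0.000385), with an interaction of 1.69 ± 0.19 (adjusted p = 0.000123). Cyp2d9 fell by 0.85 ± 0.10 and by 0.46 ± 0.10 (adjusted p = 1.17e-05 and 0.0169), with an interaction of 0.39 ± 0.14 that was not called (adjusted p = 0.0913). Among genes above the median level that interaction was called (adjusted p = 0.0322).

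Cyp2e1, which oxidises ethanol and other small molecules, read 13.65, 13.65 and 13.73 in healthy and 12.61, 12.28 and 12.70 in AKI controls. In GR-deficient mice it read 12.82, 13.44 and 13.37 when healthy and 12.48, 12.51 and 12.46 in AKI. It thus fell in both genotypes without overlap, by 1.15 ± 0.15 (adjusted p = 3.73e-05) and 0.72 ± 0.15 (adjusted p = 0.0143), and the interaction was 0.42 (95% interval -0.03 to 0.88, adjusted p = 0.252). With array quality weights the interaction was 0.47 and called (adjusted p = 0.035). Cyp2u1, a long-chain fatty acid hydroxylase, fell by 0.62 ± 0.11 in controls (adjusted p = 0.000714), with an interaction of 0.63 ± 0.16 (adjusted p = 0.0206) called in 8 of the 12 fits leaving out 1 array.

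Cyp2b10, the classical target of the receptor CAR, moved the other way. It read 6.33, 6.24 and 6.59 in healthy and 6.82, 7.21 and 7.59 in AKI controls, and 6.43, 5.77 and 6.01 in healthy and 5.84, 5.83 and 6.13 in AKI GR-deficient cortex. The control AKI arrays were above all others. It rose by 0.82 ± 0.19 in controls (adjusted p = 0.00419) and was 1.28 ± 0.19 lower in GR-deficient than in control AKI (difference -1.28, adjusted p = 0.000329). Its interaction of -0.96 ± 0.27 (adjusted p = 0.0334) was called in 4 of the 12 fits leaving out 1 array. That call was also lost with quantile or cyclic loess normalization (adjusted p = 0.0573 and 0.0789). Cyp3a13, a Cyp3a enzyme found outside the liver as well as in it, read 4.97, 5.33 and 5.43 in healthy and 6.28, 6.33 and 5.93 in AKI controls, and 4.92, 5.17 and 4.99 and then 5.65, 5.35 and 5.46 in GR-deficient mice. It rose by 0.94 ± 0.14 in controls (adjusted p = 0.000148). In GR-deficient mice its AKI difference of 0.46 was not called (adjusted p = 0.0871), but was with quantile or cyclic loess normalization (adjusted p = 0.0282 and 0.0274). Cyp3a13 was lower in GR-deficient than in control AKI, with a difference of -0.70 ± 0.14 (adjusted p = 0.00351). Its interaction, -0.48 ± 0.20, was not called (adjusted p = 0.167), but was with array quality weights, at -0.63 (adjusted p = 0.0163). The other xenobiotic genes that rose in controls were Cyp2a12, by 0.61 ± 0.17 (adjusted p = 0.0126), and Cyp1b1, by 0.45 ± 0.12 (adjusted p = 0.0108). Cyp2b10, Cyp3a13 and Cyp2a12, with means of 6.40, 5.48 and 4.77, were among the 59 members with low array values. Neither Cyp1a gene was called, though Cyp1a1 was called lower in control AKI without both arrays that lay apart (-0.30, adjusted p = 0.0468). Of the aryl hydrocarbon receptor's targets outside the family, which were 4 measured genes, Nqo1 rose by 1.78 ± 0.13 and Tiparp by 0.76 ± 0.13 in control AKI (adjusted p = 1.31e-07 and 0.000446). The other 2 were not called, among them Ahrr at 0.0035 (adjusted p = 0.992).

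**Figure D3:**
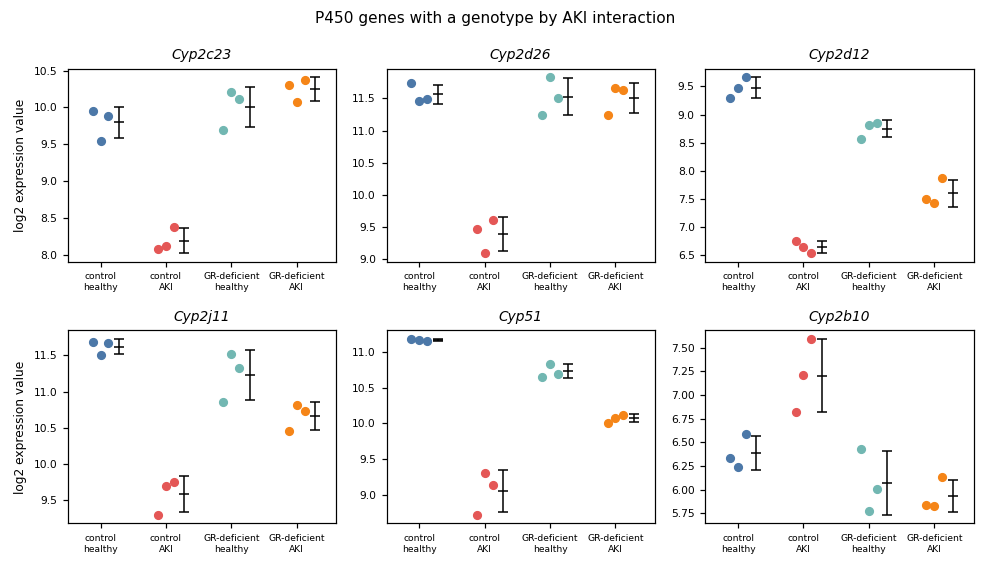
log2 values of 6 P450 genes with a called interaction, by group, where dots are arrays in replicate order and the bar is the mean ± SD of 3 arrays. For Cyp2c23, Cyp2d26, Cyp2d12, Cyp2j11 and Cyp51 the 3 control AKI arrays lie under all others, and for Cyp2b10 they lie above all others (axes do not start at 0).

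Family 4 split in control AKI, with 5 of 16 members (31.2%) lower and 3 (18.8%) higher, against 15.1% and 13.6% of all genes. The Cyp4a genes, fatty acid and arachidonic acid hydroxylases, went in both directions. Cyp4a14, a target of the fatty acid receptor PPAR-alpha, read 6.49, 5.40 and 8.19 in healthy controls and 7.86, 8.91 and 10 in control AKI, where the groups overlapped. In GR-deficient mice it read 7.57, 8.09 and 8.29 when healthy and 11.01, 10.53 and 10.88 in AKI, where they did not. It rose by 2.23 ± 0.56 in controls (4.68-fold, adjusted p = 0.00723) and 2.82 ± 0.56 in GR-deficient mice (7.08-fold, adjusted p = 0.0109), and the interaction was 0.60, with a 95% interval of -1.11 to 2.30 (adjusted p = 0.720). The genotypes in AKI differed by 1.88 ± 0.56 (adjusted p = 0.0322). That call was kept in 1 of the 6 fits leaving out 1 array and was lost without control AKI replicate 1, at 1.35 (adjusted p = 0.133).

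Cyp4a31 read 11.96, 11.54 and 12.07 in healthy and 10.57, 10.95 and 11.47 in AKI controls, and 11.14, 11.98 and 12.14 and then 12.13, 12.27 and 12.12 in GR-deficient mice. The control AKI arrays were under the healthy control and GR-deficient AKI arrays, and healthy GR-deficient replicate 1 lay among them. The control difference was -0.86 ± 0.25 (adjusted p = 0.0157), a call lost without control AKI replicate 1 or healthy control replicate 1 or 3. The genotypes in AKI differed by 1.18 ± 0.25 (adjusted p = 0.0037), and the interaction of 1.28 ± 0.35 (adjusted p = 0.0276) was called in 5 of the 12 fits leaving out 1 array. The interaction was 0.76 without both arrays that lay apart (adjusted p = 0.0586). Cyp4a10, its close neighbour, was called in no comparison of the reported fit, at 0.25 in controls and 0.61 in GR-deficient mice. Without control AKI replicate 3, Cyp4a10 was called 0.72 higher in GR-deficient than in control AKI (adjusted p = 0.0163). Array quality weights also called that difference and the rise in GR-deficient mice (adjusted p = 0.0139 and 0.034). Cyp4a10 and Cyp4a12b are named as close copies, after their values were seen. Probes may not separate such copies, so how each copy behaved is uncertain.

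Cyp4a12a, the main 20-HETE synthase of the mouse kidney and higher in males, read 12.04, 12.02 and 12.04 in healthy controls and 10.45, 10.96 and 10.54 in control AKI. In GR-deficient mice it read 9.86, 10.72 and 11.31 when healthy and 9.72, 11.22 and 9.96 in AKI. Healthy controls stood above all other arrays and agreed to an SD of 0.01, whereas the GR-deficient groups had SDs of 0.73 and 0.80. It fell by 1.39 ± 0.35 in control AKI (adjusted p = 0.00736). The difference between healthy genotypes, -1.41 ± 0.35, was of the same size and did not pass over all genes (adjusted p = 0.169). Its near-identical copy Cyp4a12b fell by 1.05 ± 0.37 in control AKI (adjusted p = 0.0446), a call lost in all 6 fits leaving out 1 array.

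Cyp4b1, which hydroxylates medium-chain fatty acids and some protoxins, read 13.77, 13.64 and 13.62 in healthy and 12.54, 12.57 and 12.63 in AKI controls, and 12.92, 13.26 and 13.47 and then 12.48, 12.71 and 12.79 in GR-deficient mice. It fell in both genotypes without overlap, by 1.09 ± 0.13 (adjusted p = 1.73e-05) and 0.56 ± 0.13 (adjusted p = 0.0285), and its interaction of 0.53 was not called (adjusted p = 0.0863). That interaction was called among genes above the median level (adjusted p = 0.0414), with array quality weights (adjusted p = 0.0276) and without healthy GR-deficient replicate 3 (adjusted p = 0.0296). In the Cyp4f subfamily, whose members hydroxylate leukotrienes and long fatty acids, 2 of 9 (22.2%) rose and 1 (11.1%) fell. Over all genes 13.6% rose and 15.1% fell. Cyp4f16 rose by 0.43 ± 0.11 (adjusted p = 0.00786) and Cyp4f37 by 0.40 ± 0.12 (adjusted p = 0.0182), the latter a call kept in 2 of the 6 fits leaving out 1 array. Cyp4f37 also differed between genotypes in AKI, by -0.38 ± 0.12 (adjusted p = 0.0361), kept in 1 of 6 such fits. This call was also lost with quantile or cyclic loess normalization (adjusted p = 0.0661 and 0.0694). The means of Cyp4f16 and Cyp4f37, 6.99 and 4.60, lay under that of the median gene. Of 13 measured PPAR-alpha targets outside the family, 7 (53.8%) rose and none fell in control AKI, led by Pdk4 (3.58 ± 0.25), Plin2 (3.21 ± 0.31), Fgf21 (0.79 ± 0.12) and Angptl4 (1.87 ± 0.30). Between the genotypes in AKI 2 of these 13 targets (15.4%) were called higher in GR-deficient mice, 4 (30.8%) were called lower and 7 were not called. Over all genes 10% were higher and 7.34% lower. Pdk4 (-1.79), Plin2 (-2.79), Fgf21 (-0.94) and Angptl4 (-0.96) were lower. Fabp1 (1.30 ± 0.19, adjusted p = 0.000283) and Acaa1b (0.66 ± 0.17, adjusted p = 0.0137), named after their values were seen, were higher, as was Cyp4a14.

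**Figure D4:**
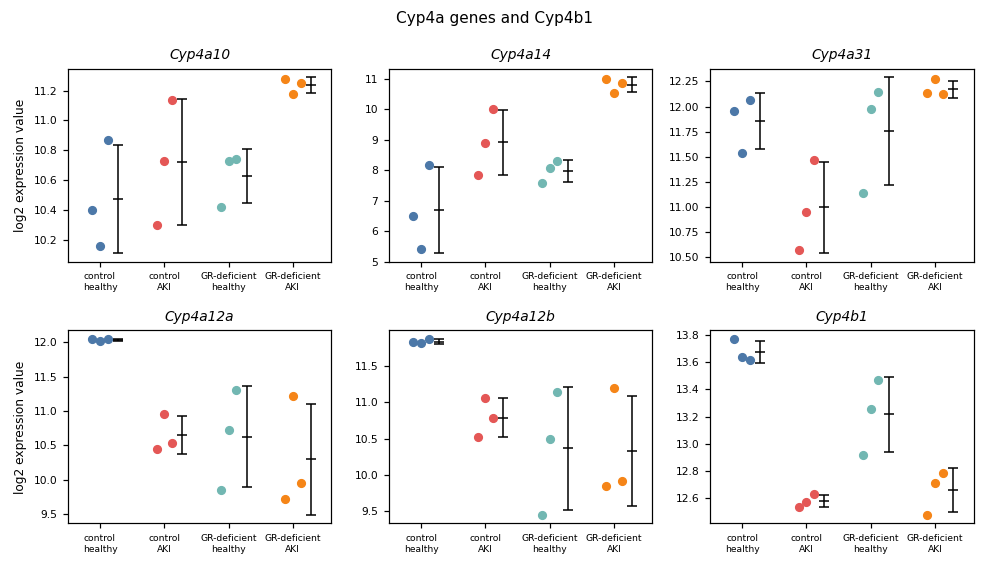
log2 values of the Cyp4a genes and Cyp4b1 by group, where dots are arrays in replicate order and the bar is the mean ± SD of 3 arrays. Cyp4a12a and Cyp4a12b are tight in healthy controls and spread in both GR-deficient groups, while Cyp4a14 is highest in the 3 GR-deficient AKI arrays (axes do not start at 0).

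Of the 7 sterol and bile acid genes 4 (57.1%) fell in control AKI and none rose, against 15.1% and 13.6% of all genes. Cyp51, the lanosterol demethylase of cholesterol synthesis, read 11.18, 11.17 and 11.15 in healthy and 8.72, 9.30 and 9.13 in AKI controls, and 10.65, 10.84 and 10.70 and then 10.01, 10.08 and 10.12 in GR-deficient mice. No groups overlapped. It fell by 2.12 ± 0.13 (4.33-fold, adjusted p = 4.06e-08) and by 0.66 ± 0.13 (1.58-fold, adjusted p = 0.00998), with an interaction of 1.46 ± 0.18 (95% interval 1.06 to 1.85, adjusted p = 0.000231). Of 16 measured cholesterol synthesis genes outside the family, 10 (62.5%) fell and 1 (6.25%) rose in control AKI. A positive interaction was called for 9 (56.2%), against 7.39% of all genes. Idi1 fell by 1.92 ± 0.20, Nsdhl by 1.47 ± 0.18 and Mvd by 1.25 ± 0.11. Msmo1, the sterol C4-methyl oxidase that acts after Cyp51, rose by 1.09 ± 0.13 in controls and by 0.84 ± 0.13 in GR-deficient mice (adjusted p = 1.2e-05 and 0.00219).

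Cyp7b1, the oxysterol 7-alpha-hydroxylase, fell in both genotypes. It read 11.52, 11.50 and 11.51 in healthy and 10.22, 10.46 and 10.46 in AKI controls, and 11.18, 11.53 and 10.87 and then 9.97, 10.21 and 9.93 in GR-deficient mice, without overlap between healthy and AKI arrays. The differences were -1.14 ± 0.15 (adjusted p = 2.79e-05) and -1.15 ± 0.15 (adjusted p = 0.000612), and the interaction was -0.01, with a 95% interval of -0.45 to 0.43. Cyp27a1, the mitochondrial sterol 27-hydroxylase, fell by 0.97 ± 0.13 in controls (adjusted p = 4.52e-05), and its interaction of 0.62 ± 0.18 (adjusted p = 0.042) was called in 1 of the 12 fits leaving out 1 array. Its GR-deficient AKI difference of -0.35 was not called (adjusted p = 0.166), but was with quantile or cyclic loess normalization (adjusted p = 0.0335 and 0.0348). Cyp39a1, a further oxysterol hydroxylase, fell by 0.63 ± 0.13 in controls (adjusted p = 0.00146) and had -0.37 in GR-deficient mice (adjusted p = 0.126). The hepatic bile acid enzymes Cyp7a1 and Cyp8b1 and the brain cholesterol hydroxylase Cyp46a1 were called in no comparison of the reported fit, with control differences of -0.15, 0.0048 and -0.14. With array quality weights Cyp46a1 was called lower in control AKI (adjusted p = 0.0104), and its AKI genotype difference and interaction were called too (adjusted p = 0.037 and 0.0408).

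**Figure D5:**
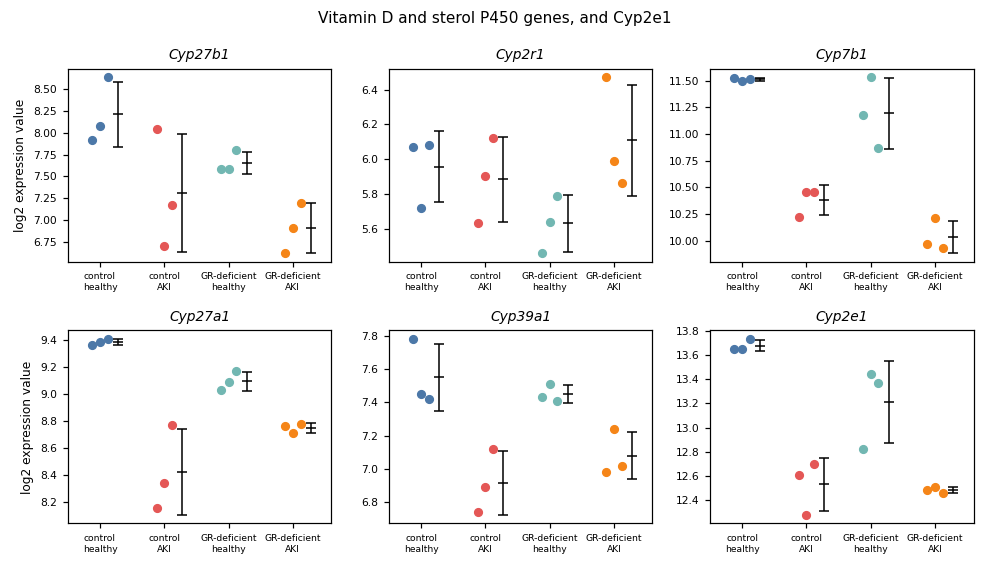
log2 values of vitamin D and sterol P450 genes and of Cyp2e1 by group, where dots are arrays in replicate order and the bar is the mean ± SD of 3 arrays. Cyp7b1 is lower in AKI than in healthy cortex in both genotypes, and Cyp27b1 overlaps between healthy and AKI controls (axes do not start at 0).

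Cyp27b1, the renal 1-alpha-hydroxylase that makes active vitamin D, read 7.92, 8.07 and 8.63 in healthy controls and 8.04, 6.71 and 7.18 in control AKI. The groups overlapped through control AKI replicate 1. In GR-deficient mice it read 7.58, 7.58 and 7.80 and then 6.63, 6.91 and 7.20, without overlap. The fall of 0.90 ± 0.27 in controls was called (adjusted p = 0.02), though not without control AKI replicate 2 or 3 or healthy control replicate 3, and the GR-deficient difference of -0.74 ± 0.27 was not (adjusted p = 0.143). The interaction was 0.15, with a 95% interval of -0.66 to 0.97. Cyp2r1, a 25-hydroxylase of vitamin D, was called in no comparison of the reported fit, at -0.07 in controls and 0.48 in GR-deficient mice (adjusted p = 0.137). With array quality weights its GR-deficient AKI difference and its interaction were called (adjusted p = 0.0259 and 0.0418). Of 13 measured genes of vitamin D and calcium handling outside the family, 8 (61.5%) fell and 1 (7.69%) rose in control AKI. Over all genes 15.1% fell and 13.6% rose. Kl, the FGF23 co-receptor, fell by 2.24 ± 0.15, Cubn by 1.53 ± 0.16 and Lrp2 by 1.39 ± 0.12, the latter being receptors that take up vitamin D with its binding protein. Calb1, a calcium-binding protein of the distal tubule, fell by 1.22 ± 0.14. Cubn and Lrp2 are also counted among the proximal tubule markers, and Calb1 among the distal markers.

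No retinoic acid or steroid hormone enzyme was called in any comparison of the reported fit. Cyp11b1 was called lower in control AKI without control AKI replicate 1 (-0.49, adjusted p = 0.0318). With array quality weights Cyp11b1 and Cyp26c1 were called lower in control AKI (adjusted p = 0.0172 and 0.0437). Those weights also called Cyp17a1 lower and Cyp26b1 higher in GR-deficient than in control AKI (adjusted p = 0.0237 and 0.0201). Cyp26a1, Cyp26b1 and Cyp26c1, which degrade retinoic acid, had control AKI differences of -0.0006, -0.02 and -0.14. Of 16 measured retinoid genes outside the family 4 (25%) rose, 2 (12.5%) fell and 10 were not called in control AKI, with a median difference of 0.04. Over all genes 13.6% rose and 15.1% fell. Aldh1a2, which makes retinoic acid, rose by 3.28 ± 0.27 in controls and 2.04 ± 0.27 in GR-deficient mice, and Rbp4 rose by 1.11 ± 0.20, while Dhrs3 fell by 1.28 ± 0.12 and Rdh16 by 0.98 ± 0.16. The steroidogenic enzymes Cyp11a1, Cyp11b1, Cyp11b2, Cyp17a1 and Cyp21a1 had control AKI differences of 0.15, -0.33, 0.06, -0.08 and -0.11, and their values on all arrays lay between 4.79 and 6.52. Of 9 measured adrenal markers outside the family 3 (33.3%) rose in control AKI, namely Scarb1 (0.45 ± 0.10), Star (0.42 ± 0.12) and Mc2r (0.39 ± 0.13). Cyp20a1 rose by 0.45 ± 0.10 in controls (adjusted p = 0.00251) and had 0.34 in GR-deficient mice (adjusted p = 0.0683), which was not called.

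Among the proteins P450 enzymes work with, the electron donor cytochrome b5 genes fell, with Cyb5b at -1.18 ± 0.13 and Cyb5a at -0.56 ± 0.09 in control AKI, the 2 called (33.3%) of 6 measured electron partners. Over all genes 15.1% fell and 13.6% rose, 28.7% in all. Of 9 heme synthesis genes 6 (66.7%) fell, among them Ppox (-0.56 ± 0.10), Uros (-0.56 ± 0.11) and Cpox (-0.54 ± 0.12). Alas1, the first and rate-limiting enzyme of heme synthesis, rose in both genotypes, by 0.97 ± 0.17 and 1.03 ± 0.17 (adjusted p = 0.000467 and 0.00391). Of 19 transcription factors and coactivators known to regulate P450 genes 5 (26.3%) fell in control AKI and none rose, a total near that of the array. They were led by Hnf4a (-1.52 ± 0.16), Ppargc1a (-1.50 ± 0.19), Vdr (-1.46 ± 0.21) and Ppara (-0.72 ± 0.18), and the first 3 had positive interactions of 1.44, 1.34 and 1.62. Hnf4a is also counted among the proximal tubule markers, and Vdr among the vitamin D genes. In the 10 genes of epoxide and eicosanoid metabolism outside the family 4 (40%) fell and 1 (10%) rose. Ephx2, the soluble hydrolase that removes the epoxygenases' products, fell by 0.68 ± 0.12 in controls and had an interaction of 0.90 ± 0.17 (adjusted p = 0.00322).

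Markers of other cells moved as well. In control AKI 10 of 12 markers (83.3%) of the loop, distal tubule and collecting duct fell, against 15.1% of all genes. Among 9 endothelial markers 5 (55.6%) rose and 2 (22.2%) fell, and among 9 macrophage markers 3 (33.3%) rose and 1 (11.1%) fell. Over all genes 13.6% rose. The mean level of the distal markers was 10.62 to 10.70 in healthy controls, 9.07 to 9.29 in control AKI, 10.64 to 10.71 in healthy GR-deficient and 10.18 to 10.47 in GR-deficient AKI cortex. That of the macrophage markers was 6.73 to 6.89, 7.45 to 7.75, 6.75 to 6.92 and 6.84 to 7.22 in the same order, and that of the endothelial markers 9.03 to 9.09, 9.06 to 9.32, 9.04 to 9.05 and 9.09 to 9.15. The macrophage markers' control AKI differences ran from -0.85 to 3.9 with a median of 0.22, so their mean leaned on few genes. Of 11 hepatocyte markers 3 (27.3%) rose and 1 (9.09%) fell, of 6 adipocyte markers 1 (16.7%) rose, and of 6 skeletal muscle markers none was called. The mean level of the hepatocyte markers was 6.69 to 6.97 in healthy controls, 7.38 to 7.52 in control AKI, 7.0 to 7.07 in healthy GR-deficient and 6.97 to 7.11 in GR-deficient AKI cortex. Their control AKI differences ran from -3.10 to 6.43 with a median of 0.19, so this mean also leaned on few genes. The part of these shifts in the P450 results was not tested.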

How the data were processed

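Renal cortex RNA of 12 samples was read on 12 arrays. The values are log2 expression values made and deposited by the authors with RMA, and the submitters' processing notes list affy and oligo as tools, with versions not given in the sources used here. The log base was read from the values, which run from 1.39 to 14.9. RMA equalises arrays and compresses low signals, so differences of dim probe sets are understated. All value columns mapped to samples (0 did not).

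Of 35556 probe sets, 23410 had an annotation entry, 21789 of these 1 symbol and 1621 several. Per gene the probe set with the highest mean was kept, giving 19938 genes. A further 7 probe sets that carry a P450 symbol among several were not used. One model of 4 group means was fitted to all 12 arrays with limma 3.58.1 in R 4.3.3 (lmFit, eBayes, two-sided, Benjamini-Hochberg, threshold 0.05, 8 residual degrees of freedom). It was tested on simulated data. Each group mean rests on 3 arrays, a number that limits its precision.

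The members and gene lists were chosen with earlier results of these data known. Named are up to 10 members a direction in each comparison, all vitamin D, retinoid, steroid and sterol members, and up to 4 genes of each further list with the smallest p in control AKI. Alternatives were quantile and cyclic loess normalization, genes above the median level, the mean of probe sets, array quality weights, a replicate block and leaving out each array.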

Additional observations from a re-analysis of the deposited data

Results flagged for a closer look

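For 11 P450 genes the AKI response differed between GR-deficient and control mice by the interaction test of limma. The differences in log2 units were 2.15 for Cyp2d26, 1.84 for Cyp2c23, 1.69 for Cyp2d12, 1.61 for Cyp2j13, 1.47 for Cyp2j11, 1.46 for Cyp51, 1.28 for Cyp4a31, 0.86 for Cyp2j5, 0.63 for Cyp2u1, 0.62 for Cyp27a1 and -0.96 for Cyp2b10. The calls of Cyp2c23, Cyp2d12, Cyp2d26, Cyp2j11, Cyp2j13, Cyp2j5 and Cyp51 were kept in each of the 12 fits that left out 1 array, and the other 4 were lost in at least 1 such fit. That of Cyp2b10 was also lost with quantile or cyclic loess normalization.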

How the results depend on the processing

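The count of members changed by AKI in control mice, 31, stayed within 1.5 times under each alternative, at 27 to 33 with 1 array left out, and 25 of the 31 calls were kept in each of those fits. In GR-deficient mice the 7 calls became 11 with cyclic loess, 21 with array quality weights, 15 without both arrays that lay apart (an alternative chosen after seeing the data) and 2 to 8 with 1 array left out. In healthy mice the 0 calls between genotypes became 1 (Cyp2d12) among genes above the median level and 2 (Cyp2d12 and Cyp4a12b) with array quality weights, and were 0 to 2 with 1 array left out. In AKI the 14 genotype calls became 30 with array quality weights and ran from 10 to 17 with 1 array left out. The 11 interaction calls became 21 with array quality weights and ran from 7 to 14, with 7 without control AKI replicate 2 or without GR-deficient AKI replicate 2. The cause of these shifts was not tested. No named difference that was called changed its sign. With the replicate block the 5 counts were 30, 8, 0, 12 and 11, and among single genes the control AKI call of Cyp2d22 was lost (adjusted p = 0.0668) while Cyp2j11 was called in GR-deficient AKI (adjusted p = 0.0485). Deviations of same-numbered arrays correlated at -0.41 to 0.25, so the numbers were not taken to pair the samples. With 3 arrays a group, calls near the threshold moved with single arrays.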

Other observations

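The arrays of the male-predominant pair Cyp4a12a and Cyp4a12b ranked alike within each GR-deficient group. Cyp4a12b read 9.45, 10.50 and 11.14 in healthy GR-deficient cortex and 9.85, 11.20 and 9.92 in GR-deficient AKI cortex, beside 11.83, 11.81 and 11.87 in healthy controls. The copies are near-identical, and whether the probe sets tell them apart was not tested.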
